A study of Caenorhabditis elegans with 9 samples.

Results

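The *pals* genes of *Caenorhabditis elegans* encode proteins that share the ALS2CR12 signature, a sequence domain whose biochemical activity is not known. The members were all genes whose WormBase symbol starts with *pals-*, matched by gene identifier, and this gave 37 of the 20541 genes measured. The reference annotation holds 38 such symbols, of which *pals-21* was not analysed here. All 37 are annotated as protein coding.

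The 3 groups of worms were compared by RNA-Seq of whole animals, in triplicate. In the first, young adult wild type (WT, strain N2) worms were exposed to the Gram-negative bacterium *Pseudomonas aeruginosa* PA14 (n = 3 libraries). In the second, *egl-44(mt2247)* mutants were fed *Escherichia coli* OP50, the standard laboratory food (n = 3 libraries). The gene *egl-44* encodes the worm TEAD, a transcription factor of the Hippo pathway. In the third, WT worms were fed *E. coli* OP50 (n = 3 libraries). All animals spent 24 h at 25°C before they were harvested, and all are labelled as adult worms. No *egl-44* mutants on PA14 were analysed here. The labels do not say whether the replicates of a group came from separate cultures, so the tests measure only the spread between these libraries. A level is given in FPKM, fragments scaled to the length of the transcript and to the mapped reads of the library, so levels of different genes are compared per length.

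The family is best known for the intracellular pathogen response, a transcriptional programme that the worm switches on when viruses or microsporidia, fungus-like parasites, grow inside its intestinal cells. PALS-22 keeps this programme off and PALS-25 switches it on, and the genes for this antagonistic pair lie next to each other. PALS-17 is a second repressor, with PALS-16 and PALS-20 acting in the opposite direction. Most other *pals* genes have no assigned activity, and several of them, above all the common reporter gene *pals-5*, are known as targets of the programme.

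Library totals inferred from the FPKM values lay between 13638251 and 17831389 reads, so 1 read on a gene of 1 kb was worth 0.0561 to 0.0733 FPKM. PA14 replicate 2 stood apart from its group (Pearson r across genes of 0.927 and 0.870 with PA14 replicates 1 and 3, which reached 0.964 with each other). The *egl-44* libraries held little RNA of the markers of reproductive adults. Their 10 oocyte and embryo markers summed to 17.4, 23.3 and 46.3 FPKM, against 1089 to 2695 FPKM in WT worms on OP50, and the 10 sperm markers summed to 4.27, 8.13 and 73.5 FPKM, against 1962 to 2415 FPKM. The adult cuticle collagen *col-19* was at 3.64 to 5.54 FPKM in *egl-44* mutants and at 1475 to 2221 FPKM in WT worms on OP50. Every oocyte, embryo and sperm marker was lower in all *egl-44* libraries than in all WT libraries on OP50. Higher in all *egl-44* libraries were 6 of 9 intestinal (sums of 7746 to 9480 FPKM against 4806 to 6510 FPKM), 4 of 8 epidermal, 4 of 6 body wall muscle and 5 of 7 neuronal markers. Over all 19309 genes with a read in these libraries, 29.8% were higher and 30.3% lower in this way. Of the epidermal markers, *col-19* alone was lower, and the collagen gene *dpy-7* was among those higher, at 203 to 380 FPKM in *egl-44* mutants and 3.79 to 41.6 FPKM in WT worms on OP50. Genotype cannot be told apart from this difference in the animals, nor from a difference in stage, although all are labelled as adult. The study describes RNA-Seq only of WT worms, on PA14 and on OP50. Whether the mutant libraries were prepared together with the WT ones is not stated, so a difference in preparation cannot be told apart from genotype either. The *egl-44* transcript itself was at 32.5, 37.8 and 28.2 FPKM in *egl-44* mutants, against 16.1, 21.5 and 15.97 FPKM in WT worms on OP50. The labels do not describe the lesion, so this level does not check the genotype.

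**Figure D1:**
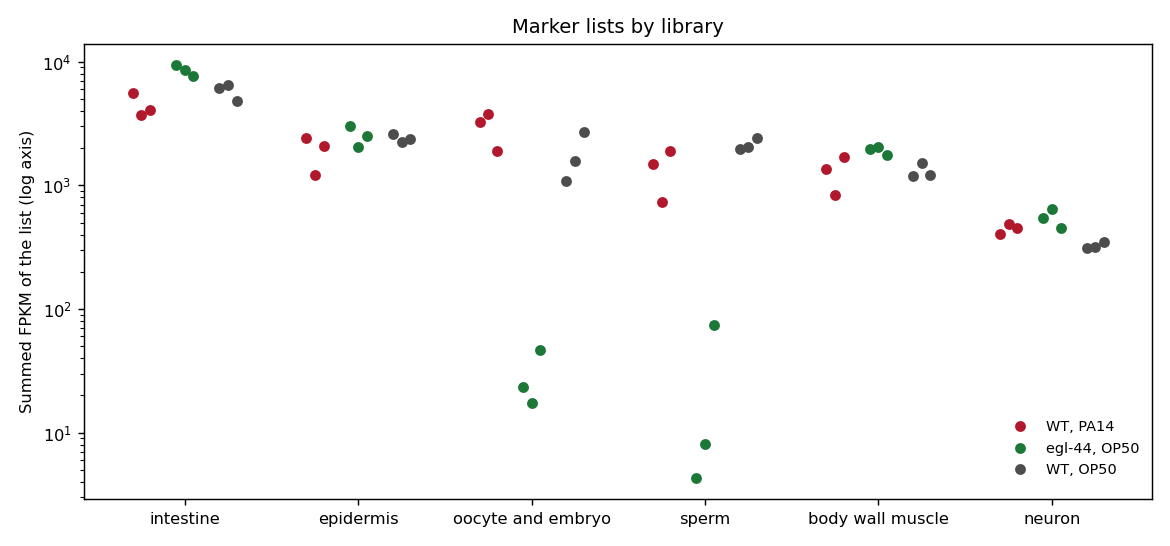
Summed FPKM of 6 lists of cell type markers (log axis) in each of the 9 libraries, with a point for each library. The *egl-44* points lie at 17.4 to 46.3 FPKM for oocyte and embryo markers and at 4.27 to 73.5 FPKM for sperm markers, below all WT libraries.

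Most *pals* genes sit beside other *pals* genes. Neighbours whose starts lay at most 20 kb apart were joined. By this rule the 38 symbols fell into 12 loci in the WBcel235 build, and 6 of these loci held 32 of the symbols. The largest, on chromosome I from 13104251 to 13144623, held 13 members from *pals-2* to *pals-15*. A locus near the left end of chromosome III, from 120435 to 137975, held *pals-24*, *pals-23*, *pals-22* and *pals-25* on the same strand. In it, 87 bases separated *pals-24* from *pals-23* and 92 bases separated *pals-22* from *pals-25*. Further along chromosome III, from 1376945 to 1406263, lay the 3 regulators *pals-20*, *pals-17* and *pals-16* with *pals-40*, *pals-19*, *pals-18* and *pals-21*, and from 4375154 to 4387757 lay *pals-26*, *pals-27* and *pals-28*. Chromosome IV held *pals-29* and *pals-30*. On chromosome V, *pals-37*, *pals-39* and *pals-38* lay together from 12437440 to 12446995, and *pals-31*, *pals-32*, *pals-33* and *pals-34* lay alone.

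Family members differed widely in level, and many were hardly detected. The group mean exceeded 0.5 FPKM for 23 of the 37 members in WT worms on PA14, for 23 in *egl-44* mutants and for 18 in WT worms on OP50. Across libraries, 27 members exceeded 0.5 FPKM in at least 1 library and 15 did so in every library. At a threshold of 1 FPKM the group means left 19, 20 and 10 members in these groups. In WT worms on OP50, 5 members had no read in any library, namely *pals-10*, *pals-11*, *pals-12*, *pals-28* and *pals-29*. The reporter gene *pals-5* had between 0 and 2 reads in each of the 9 libraries, 8 reads in all. A count of 0 on this gene allows up to 3 reads, or 0.1531 to 0.2002 FPKM depending on the library, and all values of *pals-5* lay below that limit, so its differences are not read at this depth.

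The strongest members by far were the neighbours *pals-24* and *pals-23*, neither of which has an assigned activity. *pals-24* (WBGene00016219, chromosome III, 120435 to 124690) had 47.3, 71.5 and 64.3 FPKM in WT worms on PA14, 28.8, 25.98 and 25.3 FPKM in *egl-44* mutants, and 15.7, 19.3 and 8.20 FPKM in WT worms on OP50. *pals-23* (WBGene00016218, chromosome III, 124778 to 127971) had 39.2, 62.5 and 49.1 FPKM on PA14, 32.8, 33.4 and 28.5 FPKM in the mutants, and 19.9, 20.7 and 9.17 FPKM in WT worms on OP50. For each gene the 3 groups did not overlap, and the PA14 libraries were the highest. The pair made up 57.8% to 60.9% of the summed family FPKM in the PA14 libraries, 35.6% to 43.7% in the *egl-44* libraries and 35.1% to 52.7% in WT worms on OP50.

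The summed FPKM of the 37 members was 142.1, 229 and 196 in WT worms on PA14, 173, 136 and 145 in *egl-44* mutants, and 67.5, 80.1 and 49.5 in WT worms on OP50. Without *pals-23* and *pals-24* the sums averaged 77.8 ± 20.2 on PA14, 93.1 ± 17.5 in *egl-44* mutants and 34.7 ± 4.60 in WT worms on OP50 (SD, n = 3 each). Both sets of sums were lowest in WT worms on OP50, with no overlap with the other groups. In whole-animal RNA, a change in the number of cells of a type and a change in the RNA of each cell cannot be told apart.

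**Figure D2:**
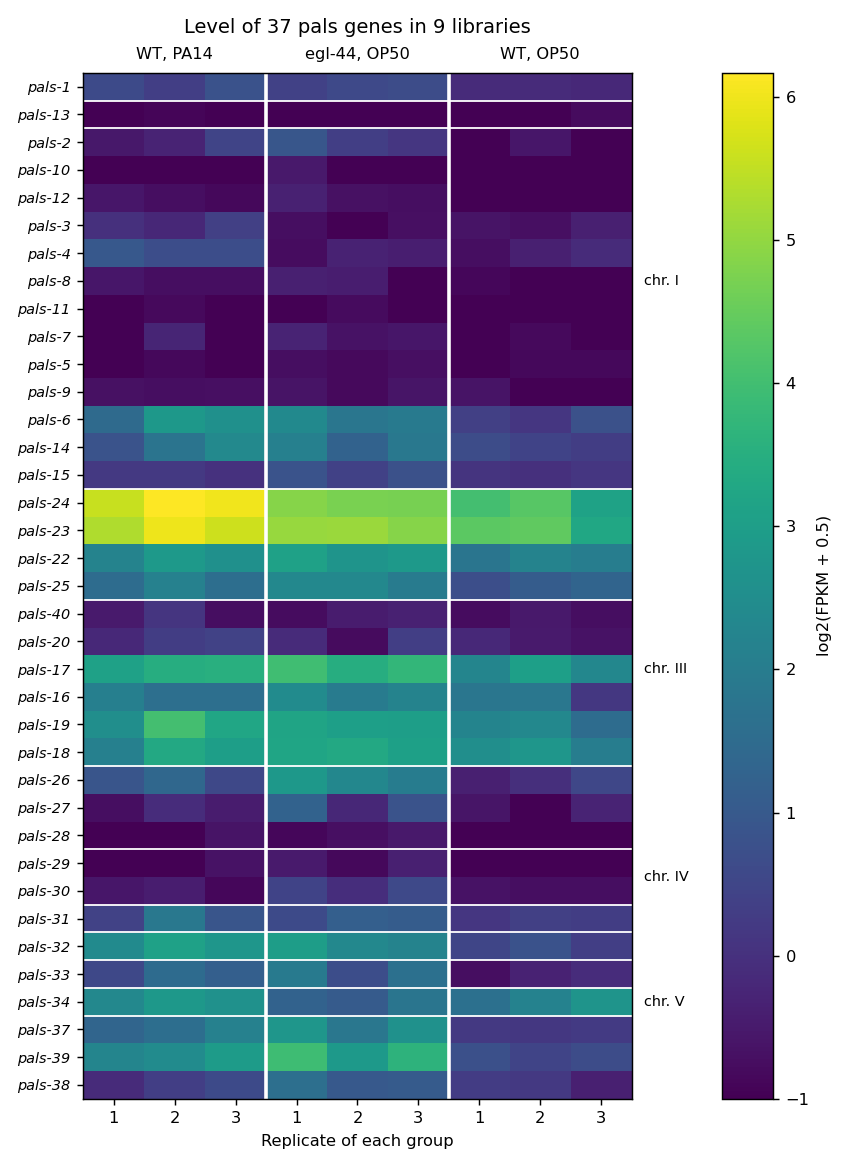
Level of the 37 *pals* genes as log2(FPKM + 0.5), with a row for each gene in chromosome order, a column for each library and white lines between loci and groups. *pals-24* and *pals-23* are the brightest rows in all 9 libraries, and most rows of the large chromosome I locus stay near the floor of the scale.

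Exposure of WT worms to PA14 asks which genes respond to the bacterium at 24 h. Of the 37 members, 21 averaged 0.5 FPKM or more across the 6 libraries compared, the filter used, and were tested with limma on log2(FPKM + 0.5). Calls needed a p below 0.05 together with a fold above 2. These limits are those of the study's methods, which do not say whether the p was adjusted, and the p used for calls here was unadjusted. By these limits 10 of the 21 members were upregulated and 0 were downregulated, where 6.99% of all 15760 tested genes were called higher and 1.78% lower. The 21 tested members had a median log2 fold change of 0.90, against 0.25 for all tested genes. With p-values adjusted over all genes by the Benjamini-Hochberg method, 2 members were called higher at 0.05, *pals-32* and *pals-39*, where 0.73% of all genes were. Of the 3 members that passed the filter with a mean under 0.5 FPKM in WT worms on OP50, *pals-33*, *pals-4* and *pals-1*, 2 were called, and these could pass only through their PA14 level. Beside these counts, 4 of 10 sperm markers were lower in all PA14 libraries than in all OP50 libraries, and 4 of 7 neuron markers higher. Over all 19458 genes with a read in these libraries, 5.6% were lower and 21.3% higher in this way. The part of these markers in the result was not tested.

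*pals-32* (WBGene00016281, chromosome V, 2896610 to 2898527) had the largest fold change among the tested members. It had 4.85, 8.04 and 6.25 FPKM in WT worms on PA14, against 0.911, 1.23 and 0.765 FPKM in WT worms on OP50. All PA14 libraries lay above all OP50 libraries, a log2 fold change of 2.21 ± 0.30 (SE) with an adjusted p of 0.0375. This gene shares 195 exonic bases with *str-46* on the opposite strand, which was listed at 0 in all 6 libraries of this comparison. *pals-39* (WBGene00008301, chromosome V, 12441663 to 12443854) had 4.34, 5.01 and 7.09 FPKM on PA14, against 1.19, 0.876 and 1.07 FPKM on OP50, a log2 fold change of 1.93 ± 0.29 (SE) with an adjusted p of 0.0452. Its close neighbour *pals-37* had 2.04, 2.51 and 3.95 FPKM on PA14, against 0.633, 0.612 and 0.655 FPKM on OP50. The 3 OP50 values of *pals-37* were nearly equal and all lay below the PA14 values (log2 fold change 1.52 ± 0.31 (SE), adjusted p = 0.101). *pals-37* shares 925 exonic bases with the antisense RNA gene *anr-30*, and the library kit does not mark strand, so reads of these genes cannot be told apart.

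*pals-24* and *pals-23* rose by log2 fold changes of 2.11 ± 0.34 and 1.63 ± 0.35 (SE). Their adjusted p-values were 0.0557 and 0.110, and all 3 PA14 libraries lay above all 3 OP50 libraries for both genes. OP50 replicate 3 had the lowest level of each, and without it the log2 fold changes were 1.76 and 1.26. The same locus held the antagonistic regulators, neither of which was called.

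The repressor gene *pals-22* had 4.15, 6.68 and 5.59 FPKM on PA14, against 2.92, 4.07 and 3.65 FPKM on OP50. Its activating partner *pals-25* had 2.4, 3.92 and 2.52 FPKM on PA14, against 1.14, 1.64 and 2.0 FPKM on OP50. For both genes every PA14 library was higher than every OP50 library, but the log2 fold changes of 0.55 and 0.71 had 95% intervals of -0.11 to 1.21 and -0.04 to 1.46. The repressor gene *pals-17* had 8.02, 10.5 and 10.9 FPKM on PA14, against 4.33, 7.81 and 4.53 FPKM on OP50. Its log2 fold change of 0.80 stayed under the limit of 1, with an interval of 0.10 to 1.51, and of the fits that left out 1 library it passed in the one without OP50 replicate 2 (1.05). *pals-16*, which acts opposite to *pals-17*, had 3.74, 2.57 and 2.56 FPKM on PA14, against 2.99, 3.05 and 0.613 FPKM on OP50. These groups overlapped, and the sign of the fold change rested on OP50 replicate 3 (log2 fold change 0.51 with it and -0.05 without it). *pals-20*, the other gene of that direction, was too low to test, with 0.388, 0.737 and 0.836 FPKM on PA14, against 0.379, 0.220 and 0.136 FPKM on OP50. It shares 502 of its 988 exonic bases with *Y82E9BR.5* on the opposite strand, which was listed at 0 in all libraries. How reads there were counted is not stated.

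The large chromosome I locus was mostly silent, and the 4 members tested there were *pals-4*, *pals-6*, *pals-14* and *pals-15*. *pals-6* (WBGene00007660, chromosome I, 13136390 to 13138544) had 2.26, 6.59 and 5.53 FPKM on PA14, against 0.772, 0.597 and 1.2 FPKM on OP50 (log2 fold change 1.88 ± 0.43 (SE), adjusted p = 0.124). *pals-14*, next to it, had 1.27, 2.87 and 4.73 FPKM on PA14, against 1.08, 0.858 and 0.745 FPKM on OP50, and PA14 replicate 1 came close to the OP50 libraries. Its log2 fold change of 1.181 lost the call without any 1 of PA14 replicates 2 and 3 (1.13 and 0.82) and OP50 replicates 1, 2 and 3 (1.28, 1.16 and 1.10). *pals-4* had 1.47, 1.12 and 1.11 FPKM on PA14, against 0.0959, 0.278 and 0.414 FPKM on OP50, which corresponded to 68 reads in the PA14 libraries together and 15 reads in the OP50 libraries together. Its log2 fold change was 1.2 ± 0.30 (SE). *pals-15*, the last gene of the locus, averaged 0.598 ± 0.0661 FPKM on PA14 and 0.554 ± 0.0524 FPKM on OP50 (SD, n = 3 each), and the 95% interval of its log2 fold change ran from -0.58 to 0.69.

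Members *pals-33* and *pals-19* were also called. *pals-33* had 0.954, 2.36 and 1.77 FPKM on PA14, against 0.104, 0.301 and 0.447 FPKM on OP50, where its 3 libraries held 15 reads together (log2 fold change 1.46 ± 0.37 (SE)). *pals-19* had 5.32, 15.9 and 8.89 FPKM on PA14, against 4.18, 4.60 and 2.42 FPKM on OP50 (log2 fold change 1.23 ± 0.44 (SE)). PA14 replicate 2 was the highest of these for *pals-19*, and the call was lost without it (0.85), without PA14 replicate 3 (1.25) and without OP50 replicate 3 (0.98). The direct neighbour *pals-18*, which shares 53 exonic bases with *pals-19*, had 3.86, 9.63 and 7.66 FPKM on PA14, against 5.28, 6.27 and 3.59 FPKM on OP50, and these groups overlapped. *pals-31* had 0.837, 3.13 and 1.34 FPKM on PA14, against 0.606, 0.792 and 0.736 FPKM on OP50, and its log2 fold change of 0.78 passed the limits only in the fit without PA14 replicate 1 (1.095), the lowest of its group, and in none of the other fits that left out 1 library. *pals-34*, one of the 10 strongest members, also overlapped, with 4.62, 6.55 and 5.64 FPKM on PA14, against 2.61, 4.03 and 6.04 FPKM on OP50.

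**Figure D3:**
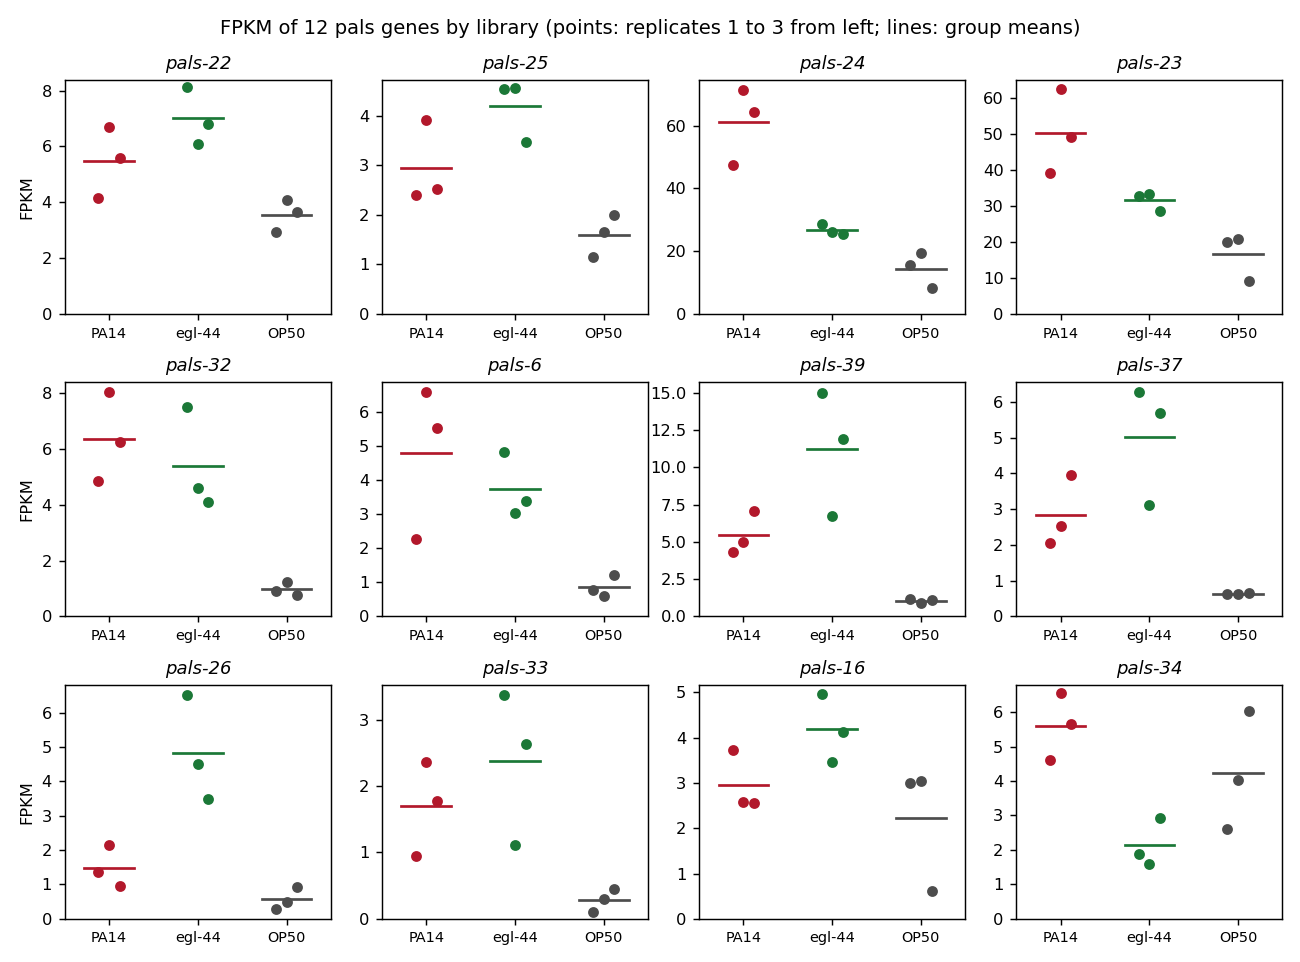
FPKM of 12 *pals* genes in each library (points, replicates 1 to 3 from left to right) with the group mean (line), for WT worms on PA14, *egl-44* mutants on OP50 and WT worms on OP50. *pals-24* is highest on PA14 at 47.3 to 71.5 FPKM, *pals-39* lies in *egl-44* mutants at 6.75 to 15.02 FPKM, and *pals-34* overlaps between *egl-44* mutants and WT worms on OP50.

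The count of 10 upregulated members was 8 without PA14 replicate 2, the library that stood apart, and ranged from 8 to 11 over the 6 fits that each left out 1 library. The count of 2 members by adjusted p fell to 0 in each of those 6 fits. Scaling the libraries by the median of ratios moved the median log2 fold change of all genes from 0.25 to 0.02 and the share of calls that were higher from 79.7% to 53.4%. With that scaling 8 members were called higher, where 4.21% of all genes were, and *pals-14* (0.99) and *pals-19* (0.999) were the members lost. Over all 37 members, the PA14 mean was above the OP50 mean for 34, below it for 2 and equal for 1. All PA14 libraries lay above all OP50 libraries for 21 members and below them for 0 members, where 21.3% of the 19458 genes with a read in these libraries lay above. The 21 included *pals-12* (6 reads on PA14 together and 0 on OP50) and *pals-8* (7 and 1), which are limited by depth.

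The *egl-44* mutants were set against WT worms on the same food to ask which genes differ in the mutants without a pathogen. Here too 21 members passed the filter, 20 of them the same as for PA14, with *pals-27* in place of *pals-4*. By the same limits 12 members were higher and 0 were lower in the mutants, where 17.9% of all 15488 tested genes were called higher and 23.4% lower. The median log2 fold change of the 21 tested members was 1.175, against 0.12 for all tested genes. By adjusted p alone, with no limit on the fold change, 17 members were higher, where 26.3% of all genes were. This count was 8 without *egl-44* replicate 1 and 13 to 16 without any other library. *pals-33*, *pals-27* and *pals-1* passed the filter only through the mutants, and 2 of these 3 were among the 12. These values stand beside the lower oocyte, embryo and sperm markers and the higher markers of intestine, epidermis, muscle and neurons in the mutants given above, whose part in them was not tested.

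The largest difference lay in the chromosome V locus, where all 3 members were called. *pals-39* had 15.02, 6.75 and 11.9 FPKM in *egl-44* mutants, against 1.19, 0.876 and 1.07 FPKM in WT worms, a log2 fold change of 2.86 ± 0.33 (SE) with an adjusted p of 0.000867. *pals-37* had 6.27, 3.11 and 5.68 FPKM in the mutants, against 0.633, 0.612 and 0.655 FPKM in WT worms (log2 fold change 2.23 ± 0.31 (SE), adjusted p = 0.00157). *pals-38*, at the other side of *pals-39*, had 2.58, 1.5 and 1.60 FPKM in the mutants, against 0.718, 0.637 and 0.274 FPKM in WT worms (log2 fold change 1.2 ± 0.30 (SE), adjusted p = 0.0149). For all 3 genes the groups did not overlap and *egl-44* replicate 1 was the highest library. The call for *pals-38* was lost without OP50 replicate 3 (log2 fold change 0.996).

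On chromosome III, *pals-26* and *pals-27* were higher in the mutants. On PA14 the first was not called and the second was too low to test. In the reference annotation, *pals-26* shares 170 exonic bases with a pseudogene on the same strand. *pals-26* (WBGene00007131, 4375154 to 4378907) had 6.51, 4.50 and 3.50 FPKM in *egl-44* mutants, against 0.278, 0.484 and 0.938 FPKM in WT worms on OP50 (log2 fold change 2.33 ± 0.34 (SE), adjusted p = 0.00209). On PA14 it had 1.37, 2.14 and 0.958 FPKM, above all OP50 libraries, with a log2 fold change of 0.90 and a 95% interval of 0.00 to 1.80, and it passed the fold limit without PA14 replicate 3 (1.103) or OP50 replicate 3 (1.14). *pals-27* had 1.88, 0.367 and 1.30 FPKM in the mutants, against 0.165, 0 and 0.312 FPKM in WT worms, which were 83 reads in the mutants together and 11 reads in WT worms together. Its call (log2 fold change 1.26) was lost without *egl-44* replicate 3 (1.15) or OP50 replicate 2 (1.07), and it did not pass the filter without *egl-44* replicate 1. Whether the response to the mutation differed from the response to PA14 for these genes was not tested, because both comparisons share the WT libraries on OP50.

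Among the regulators of the intracellular pathogen response, *pals-25* and *pals-17* were called higher in the mutants. *pals-25* had 4.54, 4.55 and 3.47 FPKM in *egl-44* mutants, against 1.14, 1.64 and 2.0 FPKM in WT worms (log2 fold change 1.175 ± 0.27 (SE), adjusted p = 0.0103). *pals-17* had 15.2, 10.5 and 13.04 FPKM in the mutants, against 4.33, 7.81 and 4.53 FPKM in WT worms (log2 fold change 1.176 ± 0.29 (SE), adjusted p = 0.0134). *pals-22* had 8.13, 6.10 and 6.82 FPKM in the mutants, against 2.92, 4.07 and 3.65 FPKM in WT worms. An activator gene and a repressor gene were both called, while *pals-22* passed the adjusted limit (0.0182) but not the fold limit (log2 fold change 0.89 ± 0.24 (SE)). *pals-16* had 4.95, 3.47 and 4.13 FPKM in the mutants, all above the 2.99, 3.05 and 0.613 FPKM of WT worms, and its log2 fold change of 0.95 had an interval of -0.20 to 2.11. *pals-20* overlapped between the groups, with 0.429, 0.0801 and 0.752 FPKM in the mutants, against 0.379, 0.220 and 0.136 FPKM in WT worms.

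Calls were also made at single genes of chromosomes V and I. *pals-32* had 7.51, 4.62 and 4.10 FPKM in *egl-44* mutants, against 0.911, 1.23 and 0.765 FPKM in WT worms (log2 fold change 1.98 ± 0.30 (SE), adjusted p = 0.00242). *pals-33* had 3.37, 1.12 and 2.63 FPKM in the mutants, against 0.104, 0.301 and 0.447 FPKM in WT worms (log2 fold change 1.81 ± 0.39 (SE), adjusted p = 0.00812). *pals-6* had 4.82, 3.04 and 3.39 FPKM in the mutants, against 0.772, 0.597 and 1.2 FPKM in WT worms (log2 fold change 1.65 ± 0.29 (SE), adjusted p = 0.00410). In each case the lowest mutant library lay above the highest WT library. *pals-14* (log2 fold change 1.27) and *pals-19* (log2 fold change 1.04) were also called, and *pals-19* lost the call without *egl-44* replicate 1 (0.99) or OP50 replicate 3 (0.79).

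The 2 strongest members just missed the fold limit in the mutants. *pals-24* had a log2 fold change of 0.95 ± 0.31 and *pals-23* of 0.99 ± 0.32 (SE), with adjusted p-values of 0.0377 and 0.0349. *pals-24* passed both limits without OP50 replicate 1 (1.05) or OP50 replicate 2 (1.19), and *pals-23* without *egl-44* replicate 3 (1.06), OP50 replicate 1 (1.16) or OP50 replicate 2 (1.19). Only *pals-34* among the tested members had a negative log2 fold change. It had 1.87, 1.59 and 2.92 FPKM in *egl-44* mutants, against 2.61, 4.03 and 6.04 FPKM in WT worms, and the groups overlapped (log2 fold change -0.81 ± 0.36 (SE), adjusted p = 0.0881). It passed the limits without *egl-44* replicate 3 (-1.02) or OP50 replicate 1 (-1.08).

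**Figure D4:**
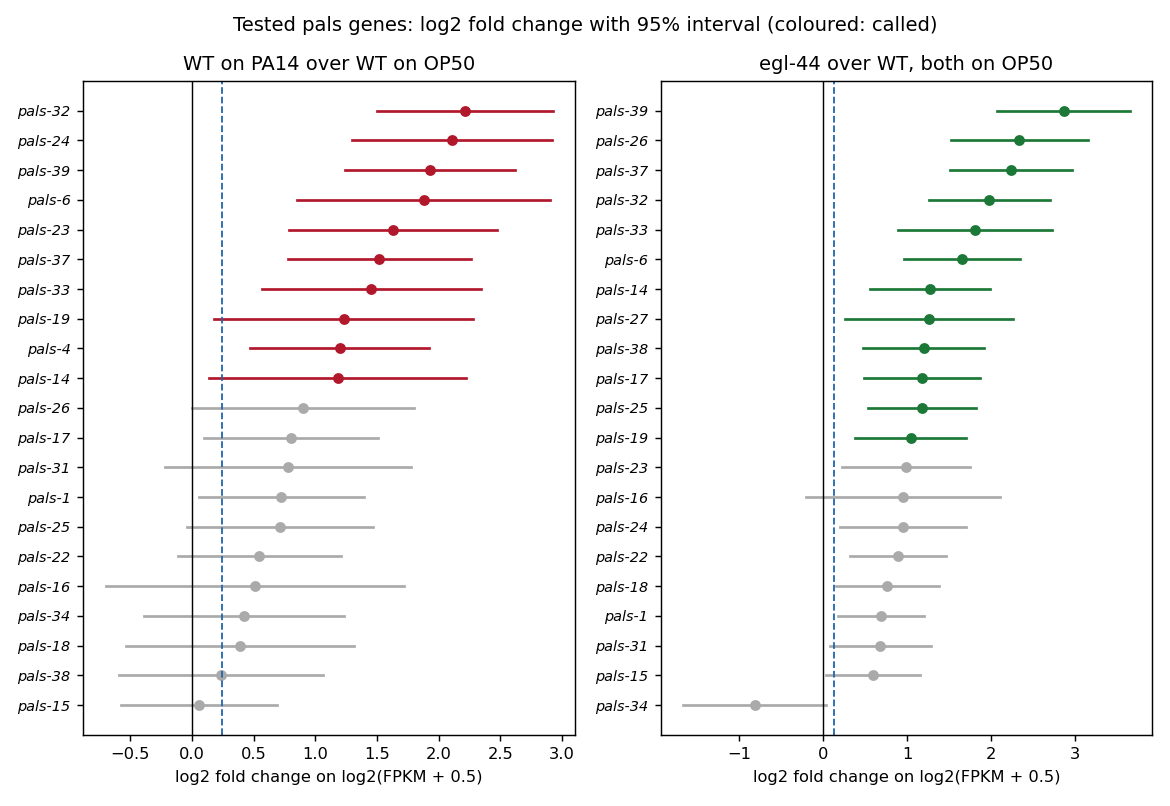
log2 fold change of the 21 tested *pals* genes in each comparison with its 95% interval, coloured where p was under 0.05 and the fold over 2, and a dashed line at the median of all genes (0.25 for PA14, 0.12 for *egl-44*). All 21 estimates are above 0 for PA14, and 20 of 21 are above 0 for *egl-44*, with *pals-34* at -0.81.

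Leaving out 1 library at a time gave between 10 and 16 members called higher and between 0 and 1 called lower in the mutants. With median-of-ratios scaling 11 members were higher, where 15.3% of all genes were, and *pals-19* (0.95) was the member lost. With the libraries scaled instead to their intestinal markers, an alternative chosen after the data had been seen, the median of all genes moved to -0.33, 7 members were called higher, where 8.23% of all genes were, and *pals-34* was called lower (log2 fold change -1.23), where 32.7% were. By adjusted p, 8 members were higher with this scaling, where 1668 of 15488 genes were. The 7 were *pals-39*, *pals-26*, *pals-37*, *pals-32*, *pals-33*, *pals-6* and *pals-27*, and the regulator genes *pals-25* (0.77) and *pals-17* (0.72) were not among them. Over all 37 members, the mutant mean was above the WT mean for 33 and below it for 4. The groups did not overlap for 28 members, of which 27 were higher, where 29.8% of the 19309 genes with a read lay above, and 1 was lower, *pals-3*, where 30.3% lay below. The 27 included *pals-5*, *pals-7*, *pals-12*, *pals-28* and *pals-29*, each with 5 to 12 reads in the mutants together and 0 to 2 in WT worms. *pals-3* had 4 and 10 reads. These members are limited by depth, and their differences are not read.

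*pals-3* and *pals-4* overlap on opposite strands of chromosome I and share 11 exonic bases, so reads there cannot be told apart, and their levels were low in the mutants. *pals-3* had 0.495, 0.374 and 0.777 FPKM in WT worms on PA14, 0.0977, 0 and 0.109 FPKM in *egl-44* mutants, and 0.151, 0.117 and 0.272 FPKM in WT worms on OP50, 43 reads in all. *pals-4* had 0.0930, 0.304 and 0.259 FPKM in the mutants, which overlapped with the 0.0959, 0.278 and 0.414 FPKM of WT worms on OP50. Both genes were noticed for these values, and no test of the PA14 libraries against the mutants was made. In the reference annotation *pals-3* has 2394 exonic bases and contains most of the exons of *pals-12*. The shortest length that turned the FPKM of *pals-3* into whole reads was 1148 bases, and which gene model was counted is not known.

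The comparisons share the WT libraries on OP50, so a low value there raises both fold changes, and no overlap between the call lists is read here. Side by side for PA14 and for the mutants, the log2 fold changes were 2.21 and 1.98 for *pals-32*, 1.93 and 2.86 for *pals-39*, 2.11 and 0.95 for *pals-24*, and 0.90 and 2.33 for *pals-26*. A further 15 members were tested in neither comparison. Their highest single value was 1.40 FPKM, for *pals-2* in *egl-44* replicate 1, and they had between 1 and 80 reads in the 9 libraries together. *pals-2* had 29, 12 and 11 reads in the mutants and 3, 6 and 16 reads on PA14, against 0, 3 and 0 reads in WT worms on OP50. *pals-30* had 0.848, 0.467 and 0.995 FPKM in the mutants and 0.169, 0.244 and 0.0507 FPKM on PA14, against 0.138, 0.107 and 0.0993 FPKM in WT worms on OP50.

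Other genes of the intracellular pathogen response were read from a list of 21 symbols, of which 19 were matched. On PA14, 2 of the 15 tested genes were higher and 0 were lower, where 6.99% of all genes were called higher and 1.78% lower. These were *skr-3*, a SKP1-related adaptor of a cullin ubiquitin ligase, and *fbxa-158*, an F-box gene of the same ligase. *skr-3* had 131, 157 and 187 FPKM on PA14, against 60.1, 71.0 and 49.5 FPKM on OP50 (log2 fold change 1.39 ± 0.20 (SE), adjusted p = 0.0395). *fbxa-158* had 1.5, 3.07 and 2.60 FPKM on PA14, against 0.181, 0.526 and 0.0489 FPKM on OP50 (log2 fold change 1.95 ± 0.38 (SE), adjusted p = 0.0932). Its mean on OP50 was under 0.5 FPKM, so it could pass the filter only through its PA14 level. The same held for *eol-1*, *skr-5*, *chil-27*, *B0507.6* and *B0507.8*, which were not called. The cullin gene *cul-6* had a log2 fold change of 0.87, and the SKP1-related *skr-4* one of 0.86, both under the fold limit. Without PA14 replicate 1, *cul-6* passed (1.11), as did *eol-1* (1.068), which also passed without OP50 replicate 2 (1.103). SKP1-related genes are paralogs, and the sources do not say how their shared reads were assigned.

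In *egl-44* mutants, 7 of the 14 tested genes of this list were higher and 0 were lower, where 17.9% of all genes were called higher and 23.4% lower. They were *eol-1*, which encodes a protein of the DXO RNA decapping family (log2 fold change 2.15), *fbxa-158* (1.86), the induced gene *B0507.8* (1.38), the RING-domain ligase gene *rcs-1* (1.26), *skr-4* (1.05), the bZIP transcription factor gene *zip-1* (1.04) and *skr-3* (1.03). Of these, *eol-1*, *fbxa-158* and *B0507.8* had a mean under 0.5 FPKM in WT worms on OP50, so they could pass the filter only through the mutants. The same held for the tested genes *skr-5* and *B0507.6*, which were not called. *eol-1* had 3.59, 4.22 and 1.89 FPKM in the mutants, against 0.370, 0.491 and 0.114 FPKM in WT worms on OP50, with no overlap. *zip-1*, which drives part of the response, had 15.5, 19.2 and 18.1 FPKM in the mutants, against 7.25, 8.75 and 8.92 FPKM in WT worms. Calls in the mutants were lost for *zip-1* without *egl-44* replicate 2 (0.98) or OP50 replicate 1 (0.95), for *skr-4* without *egl-44* replicate 3 (0.86) or OP50 replicate 3 (0.96), for *skr-3* and *rcs-1* without OP50 replicate 3 (0.90 and 0.98), and for *B0507.8* without *egl-44* replicate 1 (1.098), *egl-44* replicate 3 (1.251) or OP50 replicate 2 (1.073). With scaling to intestinal markers 2 calls were left, *eol-1* and *fbxa-158*, both of which could pass the filter only through the mutants. *drh-1*, the RIG-I-like receptor that senses viral RNA, had 10.2, 9.89 and 10.7 FPKM in the mutants, against 12.97, 14.1 and 16.9 FPKM in WT worms (log2 fold change -0.49, adjusted p = 0.0606). On PA14 it had 18.8, 21.9 and 18.0 FPKM, a log2 fold change of 0.41 with an interval of -0.05 to 0.87. Of the repressors of the response, *pnp-1* had log2 fold changes of 0.33 on PA14 and 0.24 in the mutants, *lin-15B* of 0.86 and -0.10, and *sta-1* of 0.58 and 0.94, and none of these was called. The call of *lin-15B* on PA14 was gained without PA14 replicate 3 (1.048) or OP50 replicate 3 (1.151), and that of *sta-1* in the mutants without *egl-44* replicate 3 (1.018). The median log2 fold change of the list was 0.65 on PA14 and 0.99 in the mutants, against 0.25 and 0.12 for all tested genes. Both medians include the genes that could pass the filter only through PA14 or only through the mutants.

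**Figure D5:**
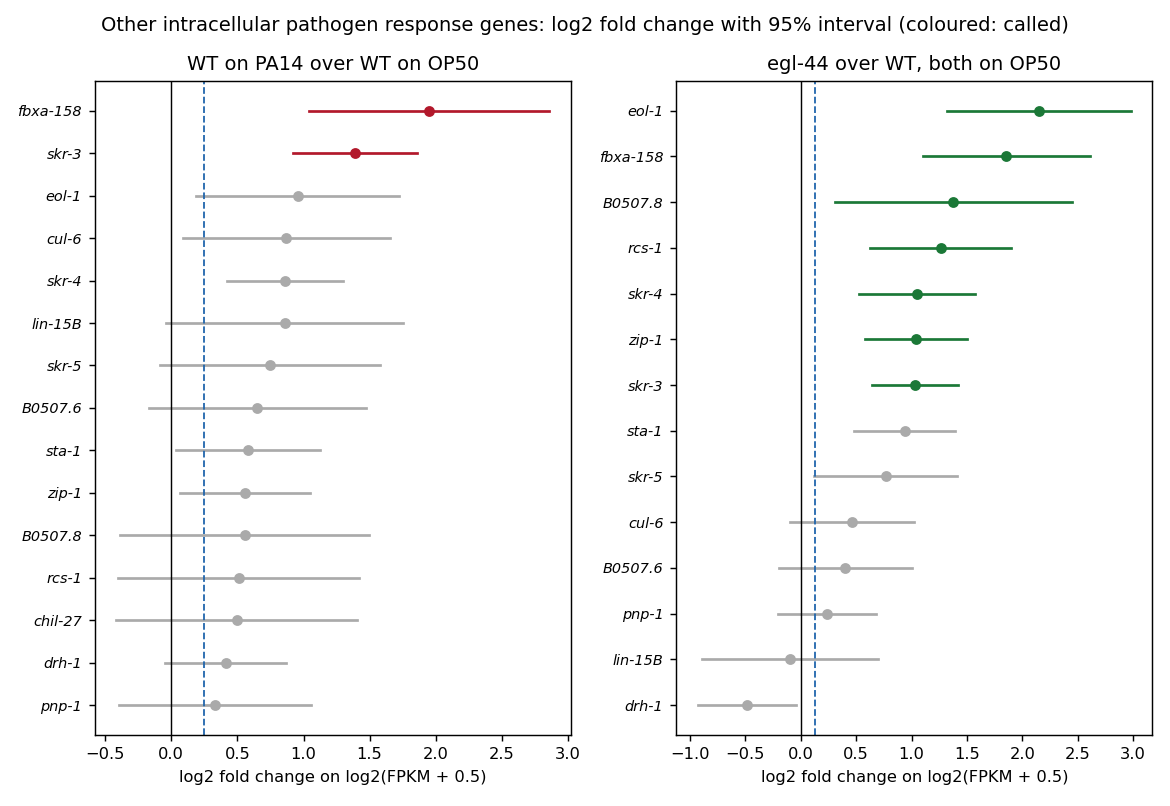
log2 fold change with 95% interval of the tested genes of the intracellular pathogen response list outside the *pals* family, coloured where p was under 0.05 and the fold over 2, with a dashed line at the median of all genes. *fbxa-158* and *skr-3* are coloured in both panels, and *drh-1* lies at 0.41 for PA14 and at -0.49 for *egl-44*.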

How the data were processed

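RNA was taken from whole worms of 3 groups with 3 libraries each. The authors deposited FPKM per gene. The submitters' processing notes name Bowtie2 2.2.3, TopHat2 2.0.12, HTSeq 0.6.1, DESeq 1.18.0 and the WBcel235 build. The strand setting of the counting and the treatment of reads shared between paralogs were not stated, and the NEBNext Ultra kit does not mark strand. Low FPKM values clustered at the value of 1 read in every library, and library totals were inferred from this. Reads were recovered at the annotated length for the 1894 of 20541 genes where it gave whole reads. For other genes with a read, the shortest length that gave whole reads was used, so their reads and lengths are estimates. Inferred library totals were 13638251 to 17831389 reads, and limits from a count of 0 (3 reads) cover counting error only.

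Each comparison tested the genes that averaged 0.5 FPKM or more in its 6 libraries, on log2(FPKM + 0.5) with limma 3.58.1 in R 4.3.3. This is a moderated linear model with a mean-variance trend. The added 0.5 FPKM understates folds of low genes. Calls needed an unadjusted p below 0.05 together with a fold change above 2. Adjusted p-values are Benjamini-Hochberg values over all tested genes. An exact permutation test of 3 against 3 libraries cannot give a p under 0.1. Named members were those with known roles, the 10 with the highest mean, and up to 10 called per direction, with others named for low or contrasting values. The members and the lists were chosen with earlier results of these data known. Alternatives were other offsets, filters, scalings, a replicate block, 1 fit of all libraries, voom on recovered reads and leaving out each library. No sequences were used here.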

Additional observations from a re-analysis of the deposited data

How the results depend on the processing

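The direction of all tested *pals* genes held under every alternative in which it was tested, except for *pals-15* on PA14 (log2 fold change -0.073 after median-of-ratios scaling, -0.34 after quantile normalization), *pals-38* on PA14 (-0.18 after quantile normalization) and *pals-16* on PA14 (-0.0455 to 0.79 over the fits that left out 1 library). In the mutants, *lin-15B* ran from -0.34 to 0.20 when libraries were left out and was 0.12 with quantile normalization, and *pnp-1* was -0.2502 with scaling to intestinal markers. Quantile normalization moved the median of all genes to 0.03 on PA14 and 0.31 in the mutants, and the share of calls that were higher to 43.9% and 59.2%. Median-of-ratios and intestinal scaling put that share in the mutants at 37.9% and 20.1%, against 43.4% as reported.

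With a filter of 5 FPKM, 3 members on PA14 and 3 in the mutants were called higher, of 5 and 7 tested, and the response list had 1 and 4 calls. With that filter 603 of 10834 tested genes were called higher on PA14 and 1627 of 10793 in the mutants. On PA14 the adjusted limit called 2 members, 0 with no filter, the filter of 5 FPKM, quantile normalization or voom, 1 with median-of-ratios scaling, 3 with intestinal scaling and 5 in 1 fit of all 9 libraries. Of all 15760 genes tested, it called 62, 171 and 282 higher in the last 3 of these settings. In the mutants it called 17, 7 with the filter of 5 FPKM (of 7 tested), 8 with intestinal scaling and 15 to 21 with the other offsets, filters, scalings and fits. Of all genes, it called 2698 of 10793 higher with that filter and 1668 of 15488 with intestinal scaling. In the mutants 20 members were called higher with quantile normalization, and 7 higher and 1 lower with intestinal scaling. Of the 15488 genes tested, 4336 were called higher with quantile normalization. With intestinal scaling 8.23% were called higher and 32.7% lower. The response list had 6 calls on PA14 with intestinal scaling, and in the mutants 4 with median-of-ratios and 2 with intestinal scaling. Of all 15760 genes tested on PA14, 1911 were called higher with intestinal scaling. In the mutants 15.3% of all genes were called higher with median-of-ratios and 8.23% with intestinal scaling. The median log2 fold change of the members on PA14 was 1.31 with 0.1 FPKM added, 0.58 with no filter, 1.23 with the filter of 5 FPKM, 0.56 with quantile normalization and 1.35 with voom on recovered reads. In the mutants it was 0.95 with 1 FPKM added, 0.76 with no filter, 1.45 with quantile normalization and 0.72 with intestinal scaling. The number of members above the threshold in WT worms on OP50 was 10 at 1 FPKM. When libraries were left out, the response list had 2 to 4 calls on PA14 and 4 to 6 in the mutants, and 0 to 1 members were lower in the mutants. The cause of these changes was not tested otherwise.

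Deviations of samples with the same replicate number correlated at -0.188, -0.236 and -0.55 on PA14 and at 0.0826, 0.0656 and 0.0949 in the mutants. With 3 libraries in each group, these values cannot decide whether the numbers pair the libraries. With the replicate number as a block, 9 members on PA14 and 12 in the mutants were higher, and 0 and 16 by adjusted p. With this block 994 of 15760 tested genes on PA14 and 2857 of 15488 in the mutants were called higher. By adjusted p, 3 and 3936 were. Members under about 3 reads a library were limited by depth.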
